A study of Mus musculus with 8 samples.

Results

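Genes of the tight, adherens and gap junctions were compared between 4 alcohol and 4 control samples of mouse liver. The set consists of 10 named gene symbols: the claudins Cldn1, Cldn2, Cldn3, Cldn12 and Cldn14, occludin (Ocln), the scaffold Tjp1, the cadherins Cdh1 and Cdh2, and the connexin Gjb1. All 10 were among the 21049 symbols of the deposited table and were taken whatever their values. The alcohol group is labelled as alcohol-treated and titled ALD, and the control group received saline. Both groups are labelled wild type (WT), both carry the same batch label, and the design text gives C57BL/6, an inbred mouse strain, with an alcohol-fed arm. The labels name liver as the tissue and also AML12, a mouse hepatocyte line, as the cell line with hepatocyte as the cell type. The markers of endothelial and stellate cells described further on were present in every sample, whereas AML12 is a line of hepatocytes alone. The labels and the design text state no dose, duration of feeding, age or sex. The design text says that the samples hold no duplicates but it does not tie samples to animals. The p-values therefore cover only the spread among these 8 samples, and that spread may be technical.

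Junctions seal and couple the cells of an epithelium. In tight junctions claudins form the strands between neighbouring cells, some closing the space and some, such as claudin-2, forming pores for small cations and water, while occludin sits in the same strands and zonula occludens proteins tie them to actin. In liver these strands separate the bile canaliculus from the blood side of the hepatocyte. Cadherins hold cells together in adherens junctions through catenins, and hepatocytes carry both E-cadherin, which lies mainly around the portal tract, and N-cadherin. Connexins form gap junction channels, and connexin 32, encoded by Gjb1, is the main one of hepatocytes, with connexin 26, encoded by Gjb2, beside it.

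Levels are given as FPKM, fragments relative to gene length and library size. Library totals recovered from them were 37132631 to 38407511 reads in alcohol samples and 33872595 to 34789814 reads in control samples. The least covered value among the junction genes rested on 164 reads, for Cldn14 in control replicate 2, where counting error alone is 7.81%, and Gjb1 had 13538 to 19732 reads per sample. Across all 9228 tested genes the median log2 change was 0.24 as deposited, and -0.003 with median-of-ratios scaling, so each change below is to be read against that shift. In bulk samples, fewer cells of a type and less RNA per cell cannot be told apart.

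The claudin genes Cldn1, Cldn2 and Cldn12 and the scaffold gene Tjp1 rose with alcohol, and the E-cadherin gene Cdh1 fell. Their mean levels were 1.88, 1.74, 1.53, 1.86 and 0.594 times those of controls. Cldn3, Cldn14, Ocln, Cdh2 and Gjb1 did not pass the test. All 10 genes had a mean of at least 1 FPKM and so entered the limma fit, where adjusted p-values under 0.05 counted as passing. So 4 of the 10 were higher and 1 was lower, against 44.2% higher and 13.0% lower among all tested genes, and both shares lay near that background. The groups of 4 did not overlap for the same 5 genes, with alcohol above control for 4 and below for 1, against 39.5% and 10.7% of all tested genes.

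**Figure D1:**
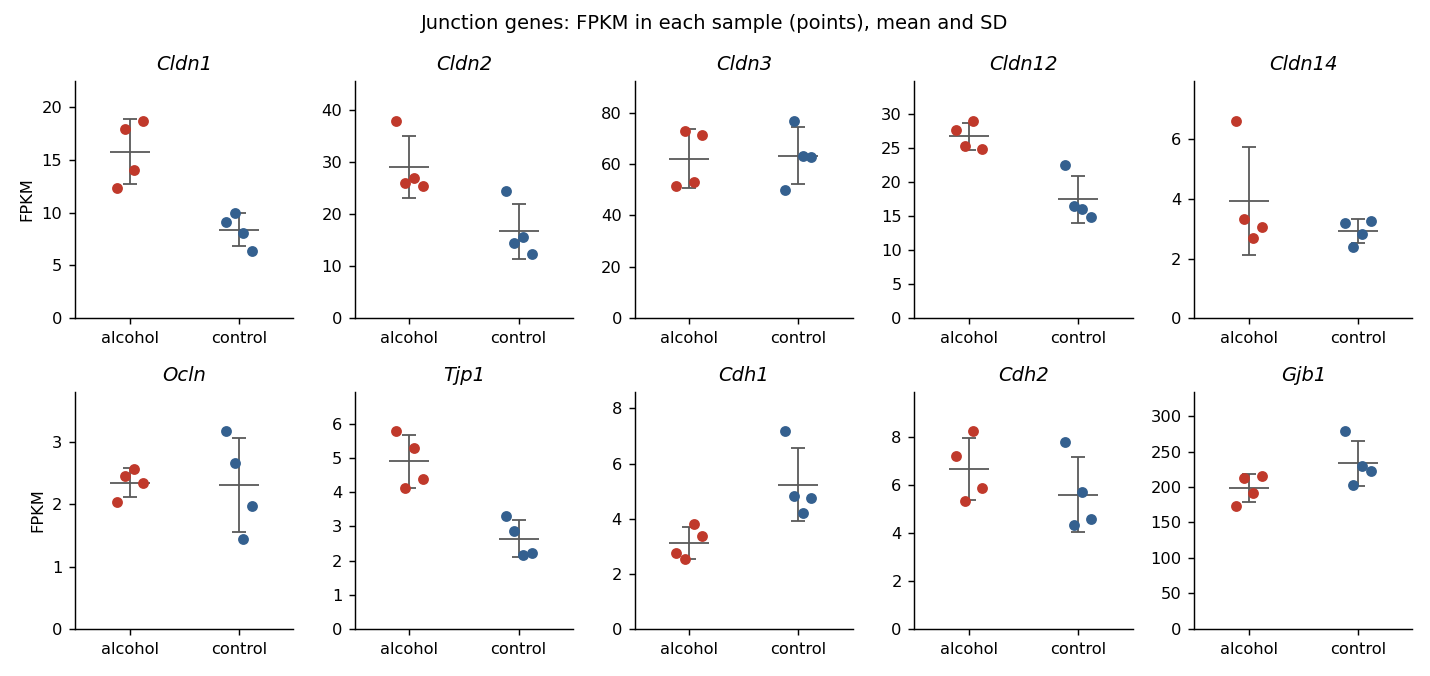
FPKM of each of the 10 junction genes in the 4 alcohol samples (red points) and the 4 control samples (blue points), with group means and SD as grey bars; every vertical axis starts at 0. The alcohol points lie above all control points for Cldn1, Cldn2, Cldn12 and Tjp1 and below them for Cdh1, and the groups overlap for the other 5 genes.

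Among the claudins, Cldn1, a barrier-forming claudin, had 12.3, 17.9, 14.03 and 18.7 FPKM in alcohol replicates 1 to 4, against 9.11, 9.98, 8.02 and 6.36 FPKM in control replicates 1 to 4. Every alcohol sample was above every control sample. Its log2 change, alcohol minus control on the log2(FPKM + 1) scale, was 0.83 (SE 0.16, limma adjusted p = 0.00131). Cldn2, the pore-forming claudin, had 38.05, 26.1, 26.95 and 25.45 FPKM in alcohol samples, against 24.4, 14.5, 15.7 and 12.4 FPKM in control samples. Replicate 1 was the highest sample of each group, and the lowest alcohol value lay just above the highest control value. The log2 change of Cldn2 was 0.79 (SE 0.20, limma adjusted p = 0.00581). Without alcohol replicate 1 it was 0.66.

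Cldn12, a claudin that lacks the PDZ-binding end of most of the family, had 27.6, 25.3, 29.0 and 24.9 FPKM in alcohol samples, against 22.5, 16.4, 15.96 and 14.9 FPKM in control samples. The control group reached close to the alcohol group only in its replicate 1. Its log2 change was 0.60 (SE 0.13, limma adjusted p = 0.00259). Cldn3, another barrier-forming claudin and the most abundant of the 5, had 51.4, 72.7, 52.9 and 71.4 FPKM in alcohol samples, against 49.9, 76.9, 63.3 and 62.9 FPKM in control samples. The groups covered nearly the same range, and the log2 change was -0.03 with a 95% interval of -0.38 to 0.33 (limma adjusted p = 0.891). Cldn14, a claudin best known from the inner ear and kidney, had 6.62, 3.32, 2.70 and 3.06 FPKM in alcohol samples, against 3.18, 2.38, 2.81 and 3.27 FPKM in control samples. Alcohol replicate 1 stood well above every control and the other 3 alcohol samples lay at or near the range of the controls. The log2 change was 0.28 (95% interval -0.17 to 0.72, limma adjusted p = 0.258), and without that sample it was 0.05.

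The 5 claudins summed to 126 to 145 FPKM in alcohol samples and 99.9 to 120 FPKM in control samples as deposited, with no overlap. The same sum with median-of-ratios scaling was a comparison added after seeing the data. It gave 113 to 132 FPKM with alcohol and 113 to 133 FPKM in controls, and the groups overlapped. Cldn1 made up 9.03% to 13.0% of that sum in alcohol samples and 6.37% to 8.35% in control samples, with no overlap. Cldn3 made up 37.8% to 50.0% with alcohol and 45.7% to 64.0% in controls, and the groups overlapped through control replicate 1. The shares and the ratios of genes below do not change with a scaling factor per library. They were chosen after the values were seen and are given as descriptions.

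Of the other tight junction genes in the set, Tjp1 rose and Ocln did not pass. Tjp1, which encodes the scaffold ZO-1 under the strands, had 5.78, 4.12, 5.30 and 4.39 FPKM in alcohol samples, against 3.31, 2.87, 2.16 and 2.23 FPKM in control samples. The groups did not overlap, and the log2 change was 0.70 (SE 0.13, limma adjusted p = 0.00127). Ocln, the strand protein occludin, had 2.03, 2.45, 2.57 and 2.35 FPKM in alcohol samples, against 3.18, 2.67, 1.45 and 1.97 FPKM in control samples. The alcohol samples lay inside the range of the controls, whose SD was 0.762 FPKM against 0.230 FPKM with alcohol. The log2 change of Ocln was 0.04 (95% interval -0.30 to 0.38, limma adjusted p = 0.827). Within each sample the FPKM ratio of Tjp1 to Ocln was 1.68 to 2.84 with alcohol and 1.04 to 1.49 in controls.

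On GRCm38, in GENCODE M21, Cldn1 lies on chromosome 16 from 26356642 to 26371841 (minus strand), Cldn2 on chromosome X from 139800828 to 139811386 (plus strand) and Cldn12 on chromosome 5 from 5489537 to 5514958 (minus strand). Cldn3 lies on chromosome 5 from 134986214 to 134987472 (plus strand), Cldn14 on chromosome 16 from 93919031 to 94008837 (minus strand), Ocln on chromosome 13 from 100496507 to 100552718 (minus strand) and Tjp1 on chromosome 7 from 65296165 to 65527781 (minus strand). All are protein-coding. Of these 7 genes Cldn3, a gene of 1 exon, is the one whose exons overlap another gene. It shares 40 bases (3.2% of its length) with the antisense gene Wbscr25, which reached at most 0.088 FPKM.

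Cldn1, Cldn2 and Tjp1, which rose, and Cldn3, which did not pass, each have 1 annotated start in the RefSeq table for GRCm38.p6. Cldn12 also rose but has more than 1 start there, and its windows are not printed. The 250 bases upstream of the starts of Cldn1, Cldn2, Tjp1 and Cldn3 are shown. They lie at chr16:26371840-26372089 (minus strand) for Cldn1, chrX:139800558-139800807 (plus strand) for Cldn2, chr7:65371245-65371494 (minus strand) for Tjp1 and chr5:134985964-134986213 (plus strand) for Cldn3. The Tjp1 window lies inside the gene as GENCODE M21 gives it, whose outermost start is at 65527781. The bases upstream of that outer start were not searched. Sequences run 5′ to 3′ on the strand of the gene, and capitals mark a match to one of the 5 motifs named after them.
Cldn1: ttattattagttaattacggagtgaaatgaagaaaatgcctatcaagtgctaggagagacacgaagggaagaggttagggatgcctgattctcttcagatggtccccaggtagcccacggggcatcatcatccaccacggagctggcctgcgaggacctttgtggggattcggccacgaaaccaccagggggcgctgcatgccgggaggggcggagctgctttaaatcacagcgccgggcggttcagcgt
Cldn2: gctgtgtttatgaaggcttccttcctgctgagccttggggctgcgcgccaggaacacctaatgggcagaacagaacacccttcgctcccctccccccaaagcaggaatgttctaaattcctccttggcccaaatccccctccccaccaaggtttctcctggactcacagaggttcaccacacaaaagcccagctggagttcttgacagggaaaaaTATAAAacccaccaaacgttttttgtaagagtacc
Tjp1: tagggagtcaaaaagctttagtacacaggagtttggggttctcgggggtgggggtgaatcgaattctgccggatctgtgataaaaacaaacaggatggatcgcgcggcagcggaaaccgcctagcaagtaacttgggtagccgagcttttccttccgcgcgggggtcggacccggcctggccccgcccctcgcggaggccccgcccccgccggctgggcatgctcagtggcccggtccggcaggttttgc
Cldn3: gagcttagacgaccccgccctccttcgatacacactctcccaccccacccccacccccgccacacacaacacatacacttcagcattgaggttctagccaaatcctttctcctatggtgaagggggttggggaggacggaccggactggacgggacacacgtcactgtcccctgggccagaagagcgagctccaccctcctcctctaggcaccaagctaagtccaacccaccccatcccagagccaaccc

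The motifs searched on both strands were CACCTG, the E-box bound by SNAIL repressors, TGANTCA for AP-1, TGATGNAA for the ATF4 composite site, TATAAA for the TATA box and CCAAT, and none of the 5 overlapped another in these 4 windows. Over 32851 upstream windows of the same length, 17.2%, 6.75%, 3.45%, 12.4% and 33.8% held them, in that order. In the 4 windows shown, the TATA box of Cldn2, starting 35 bases before the start, was the one match. RefSeq windows were matched for 8 of the 10 junction genes, 16 windows in all. Cdh1 and Cdh2 had no window, so the bases upstream of them were not searched. Among the other 12 windows, CACCTG lay in 1 Ocln window at 2 places, in 1 Cldn14 window and in 1 Gjb1 window. CCAAT lay in windows of Cldn12, Cldn14, Ocln and Gjb1, and TATAAA in 1 Gjb1 window. No window held the AP-1 or ATF4 motif. A match is a description of these letters only.

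Of the cadherins, Cdh1 fell and Cdh2 did not pass. Cdh1, E-cadherin, had 2.76, 2.52, 3.80 and 3.36 FPKM in alcohol samples, against 7.17, 4.84, 4.19 and 4.76 FPKM in control samples. Every alcohol sample was below every control sample, and control replicate 1 was well above the other controls. The log2 change was -0.59 (SE 0.15, limma adjusted p = 0.00722) and was -0.45 without that control. Only 6.6% of tested genes had a lower log2 change than Cdh1. Cdh2, N-cadherin, had 7.20, 5.34, 8.24 and 5.89 FPKM in alcohol samples, against 7.79, 4.33, 5.69 and 4.58 FPKM in control samples. The groups overlapped, with control replicates 1 and 3 above the lowest alcohol sample, and the log2 change was 0.23 (95% interval -0.15 to 0.61, limma adjusted p = 0.273). Without control replicate 1 it was 0.38 and just passed (limma adjusted p = 0.0465, range over all alternatives 0.0465 to 0.897).

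The balance of the cadherins separated the groups. The FPKM ratio of Cdh1 to Cdh2 was 0.384, 0.473, 0.461 and 0.570 in alcohol samples, against 0.921, 1.12, 0.736 and 1.04 in control samples. In controls the FPKM values of the cadherins were close to equal, and with alcohol Cdh1 was the lower in all 4 samples. Lengths behind FPKM were 0.969 times the annotated exon length for Cdh1 and 1.235 times for Cdh2. The near equality in controls therefore depends on the length used. Cdh1 lies on chromosome 8 from 106603351 to 106670246 (plus strand).

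Gjb1, connexin 32, was the most abundant of the 10 genes in both groups. It had 174, 212, 191 and 216 FPKM in alcohol samples, against 279, 203, 229 and 222 FPKM in control samples. The groups overlapped at 203 to 216 FPKM. Its log2 change was -0.23 (95% interval -0.51 to 0.05, limma adjusted p = 0.147), and with median-of-ratios scaling it was -0.53 and passed (limma adjusted p = 0.00507, range over all alternatives 0.00507 to 0.608). Gjb2 (connexin 26), its partner in hepatocyte gap junctions, rose. Gjb2 had 384, 254, 244 and 256 FPKM in alcohol samples, against 137, 93.9, 109 and 101 FPKM in control samples. The groups were far apart, and the log2 change was 1.35 (SE 0.17, limma adjusted p = 0.000105).

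The FPKM ratio of Gjb2 to Gjb1 was 2.21, 1.19, 1.28 and 1.19 in alcohol samples, against 0.491, 0.462, 0.473 and 0.455 in control samples. Gjb1 thus had the higher FPKM in all 4 controls and Gjb2 in all 4 alcohol samples, with alcohol replicate 1 far above the rest of its group. Without that sample the alcohol ratios were 1.19 to 1.28. Lengths behind these FPKM values were 1.193 times the annotated exon length for Gjb1 and 0.999 times for Gjb2. Which connexin was the more abundant in alcohol replicates 2 and 4 therefore depends on the length used. Gjb1 lies on chromosome X from 101376378 to 101385629 (plus strand) and Gjb2 on chromosome 14 from 57098600 to 57104702 (minus strand).

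**Figure D2:**
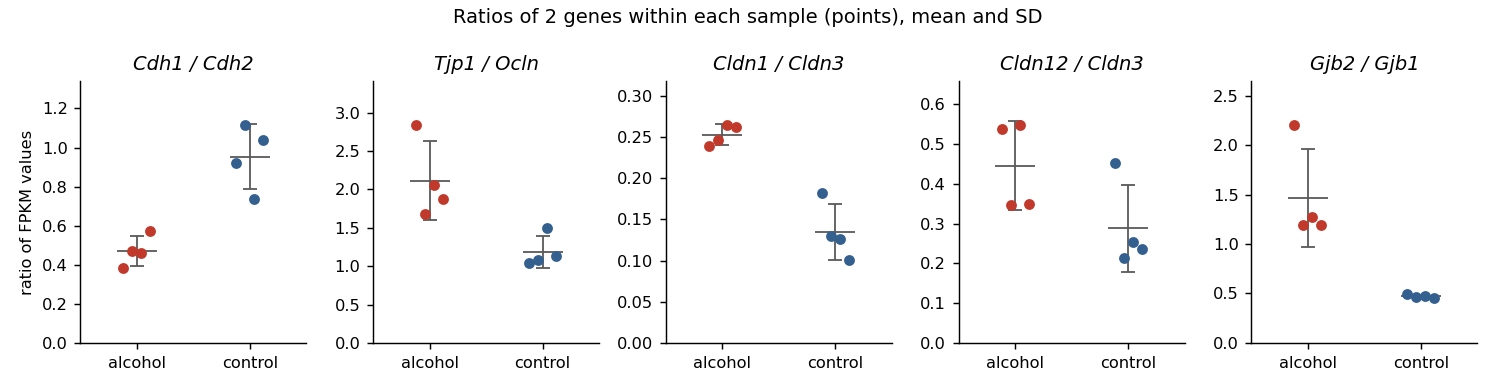
Ratios of the FPKM values of pairs of junction genes within each sample, for alcohol (red points) and control (blue points), with group means and SD as grey bars and axes from 0. The alcohol and control points do not overlap for Cdh1 over Cdh2, Tjp1 over Ocln, Cldn1 over Cldn3 and Gjb2 over Gjb1, and they overlap for Cldn12 over Cldn3.

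The 5 calls among the 10 genes were the same under median-of-ratios scaling, with Gjb1 added as a second fall, and their sizes followed the scaling. With it the log2 changes were 0.56 for Cldn1, 0.50 for Cldn2, 0.31 for Cldn12, 0.47 for Tjp1 and -0.83 for Cdh1. That scaling gives 25.9% higher and 26.5% lower among all tested genes. With quantile normalization Tjp1 stood at 0.37 and Cdh1 at -0.91. The exact 2-sided permutation p was 0.0286 for each of Cldn1, Cldn2, Cldn12, Tjp1 and Cdh1, the smallest that 4 against 4 samples can give. For Gjb1, Cdh2, Cldn14, Cldn3 and Ocln it was 0.114, 0.286, 0.371, 0.857 and 0.971.

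**Figure D3:**
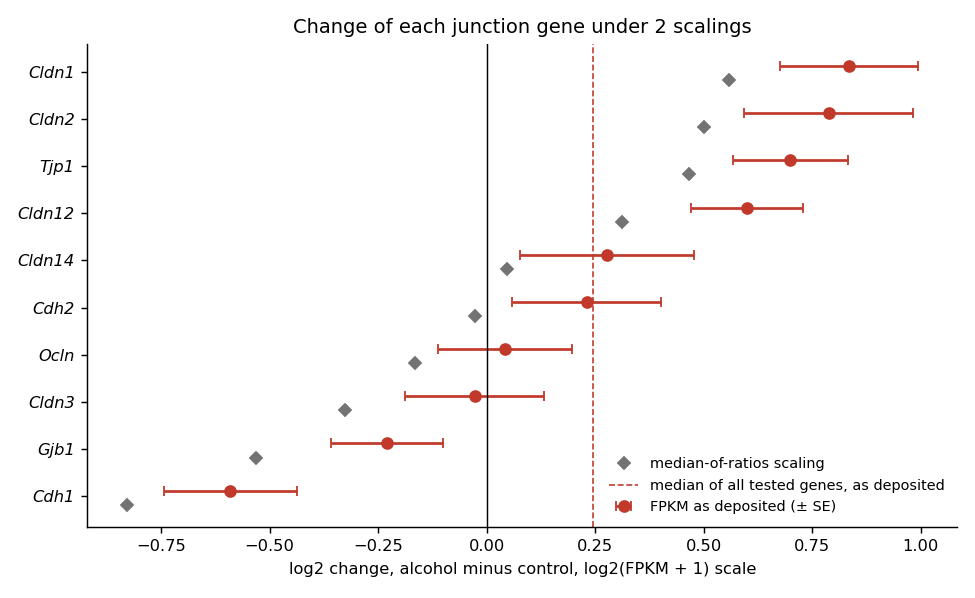
Log2 change of each junction gene, alcohol minus control, on the log2(FPKM + 1) scale, as deposited (red circles, bars are the SE) and with median-of-ratios scaling (grey diamonds); the dashed line is the median of all tested genes as deposited, 0.24. Every gene shifts to the left under median-of-ratios scaling, and Cldn1, Cldn2, Cldn12 and Tjp1 stay above 0 while Cdh1 stays below it.

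By level per gene length, Gjb1 and then Cldn3 came first in both groups, with mean levels of 198 and 62.1 FPKM with alcohol and 233 and 63.2 FPKM in controls. With alcohol the order went on with Cldn2, Cldn12, Cldn1, Cdh2, Tjp1, Cldn14, Cdh1 and Ocln, and in controls with Cldn12, Cldn2, Cldn1, Cdh2, Cdh1, Cldn14, Tjp1 and Ocln. Cldn2 and Cldn12 overlapped each other in both groups. With alcohol the samples also overlapped between Cdh2 and Tjp1 and between each later pair of neighbours. In controls Cldn1, Cdh2 and Cdh1 overlapped as neighbours, as did Cldn14, Tjp1 and Ocln. Cdh1 thus ranked 9 of the 10 genes with alcohol and 7 in controls, and Tjp1 ranked 7 with alcohol and 9 in controls. These ranks rest on the lengths used for FPKM, which were 0.67 to 1.235 times the annotated exon lengths.

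The wider junction machinery was read from 7 lists of claudins, other tight junction proteins, cadherins and nectins, catenins, connexins and desmosome proteins. Leaving out the 10 genes above, they hold 118 symbols, of which 93 are in the table and 55 were tested. Of these 35 rose (63.6%) and 6 fell (10.9%), with a median log2 change of 0.47, against 44.2%, 13.0% and 0.24 over all tested genes. With median-of-ratios scaling 25 rose and 10 fell, where all tested genes gave 25.9% higher and 26.5% lower. With quantile normalization 23 rose and 9 fell.

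Among claudins, 7 of the 18 listed were tested, of which 5 rose: Cldn1, Cldn2 and Cldn12, and outside the 10 genes Cldn5 and Cldnd1. The counts in this paragraph stand beside 44.2% higher and 13.0% lower among all tested genes, and 25.9% and 26.5% with median-of-ratios scaling. Cldn5, the claudin of blood vessels, averaged 5.51 ± 2.22 FPKM with alcohol and 1.39 ± 0.216 FPKM in controls (SD, n = 4 each, limma adjusted p = 0.000322). Cldnd1, a claudin-domain protein, averaged 9.87 ± 0.756 and 7.31 ± 1.04 FPKM in alcohol and control samples, and did not pass with median-of-ratios scaling. Of 9 other tested membrane proteins of tight junctions 7 rose and 0 fell, and with median-of-ratios scaling 6 rose, and Lsr and Igsf5, named after their values were seen, fell. The junctional adhesion molecule Jam2 rose most on the log2 scale, to 5.58 ± 0.753 FPKM with alcohol against 0.741 ± 0.110 FPKM in controls. The adhesion receptor Cxadr averaged 19.95 ± 3.42 FPKM with alcohol and 4.64 ± 0.746 FPKM in controls, and the endothelial adhesion protein Esam 6.30 ± 0.973 and 1.43 ± 0.267 FPKM. F11r, the adhesion molecule JAM-A, averaged 38.02 ± 0.327 FPKM with alcohol and 21.9 ± 2.37 FPKM in controls.

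Of 18 other plaque and polarity genes 11 rose and 3 fell, and with median-of-ratios scaling 8 of all 19, Tjp1 included, rose and 5 fell. Among all tested genes 44.2% rose and 13.0% fell, and 25.9% and 26.5% with that scaling. Scrib, a polarity scaffold, averaged 4.56 ± 0.308 FPKM with alcohol and 2.23 ± 0.363 FPKM in controls (SD, n = 4 each), and the scaffold Magi3 4.59 ± 0.578 and 2.11 ± 0.781 FPKM. Amot rose, with a log2 change of 0.61. Its relative Amotl2 fell, with 2.98 ± 0.599 FPKM with alcohol and 5.19 ± 0.268 FPKM in controls. Tjp3, which encodes the scaffold ZO-3, fell, with 1.62 ± 0.516 FPKM with alcohol and 2.96 ± 0.703 FPKM in controls (limma adjusted p = 0.0114). It was chosen after its values were seen.

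Of 5 other cadherins and nectins 3 rose and 1 fell, against 44.2% and 13.0% of all tested genes. Pvr, a nectin-like receptor of adhesion and immune recognition, averaged 17.3 ± 4.11 FPKM with alcohol and 1.41 ± 0.267 FPKM in controls (SD, n = 4 each), a log2 change of 2.91. Cdh5, the cadherin of endothelium, averaged 4.94 ± 0.525 and 1.202 ± 0.341 FPKM. Nectin1 rose (but did not pass with median-of-ratios scaling), and Nectin2 fell, with 11.3 ± 1.27 FPKM with alcohol and 16.6 ± 2.58 FPKM in controls. Of 13 catenins and plaque genes 7 rose and 2 fell, against 4 and 2 with median-of-ratios scaling. The shares of all tested genes with that scaling were 25.9% higher and 26.5% lower. Ctnnb1, beta-catenin, which binds cadherin tails and also carries Wnt signals, averaged 55.0 ± 1.37 FPKM with alcohol and 35.3 ± 9.13 FPKM in controls. Ctnna1, the alpha-catenin that links cadherins to actin, fell to 17.9 ± 1.15 FPKM with alcohol, against 22.6 ± 1.62 FPKM in controls (limma adjusted p = 0.0143). It was chosen after its values were seen. Zyx, a focal adhesion and junction protein, rose with a log2 change of 0.92, the catenin relative Ctnnal1 with 0.59, and the actin cross-linker Actn1 fell by 0.65 on the log2 scale.

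All 3 other tested connexins rose, where 44.2% of all tested genes did. Beside Gjb2, Gja1 (connexin 43) averaged 2.08 ± 0.244 FPKM with alcohol and 0.473 ± 0.117 FPKM in controls, and Gja4 (connexin 37, a connexin of arteries) 4.42 ± 0.804 and 1.43 ± 0.289 FPKM (SD, n = 4 each). Of 5 desmosome genes 2 rose and 0 fell, near the 44.2% and 13.0% of all tested genes. Desmoplakin (Dsp), which anchors keratin, averaged 7.84 ± 0.680 FPKM with alcohol and 3.02 ± 0.857 FPKM in controls, and the desmosomal cadherin Dsc2 13.6 ± 1.16 and 8.13 ± 1.86 FPKM.

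Genes that act on junctions from outside were read from 2 more lists. Of 10 transcription factors known to repress E-cadherin, 2 were tested and neither passed. Snai2 averaged 2.51 ± 2.31 FPKM with alcohol and 1.61 ± 1.204 FPKM in controls (SD, n = 4 each), and Tcf3 2.67 ± 0.219 and 2.58 ± 0.369 FPKM. Without alcohol replicate 1, at 5.93 FPKM, the alcohol values of Snai2 were 1.03 to 1.90 FPKM. The other 8 lay below the minimum of 1 FPKM. When all 21049 listed genes were fitted, 5 of the 10 were higher and 0 lower, against 24.2% and 6.39% of all listed genes. The 5 were Snai1, Snai3, Zeb1, Zeb2 and Tcf4, named after their values were seen. Those background shares include many genes near 0 FPKM. With a minimum mean of 0.1 FPKM they were larger, with 5242 of 13255 genes higher and 1473 lower. Of the 10 factors, 3 lay below that minimum. Snai1, the factor SNAIL, had 0.596, 0.714, 0.675 and 0.964 FPKM in alcohol samples, against 0.106, 0.359, 0.338 and 0.291 FPKM in control samples (limma adjusted p = 0.00672). All were low, and Zeb2 reached at most 0.791 FPKM in any sample.

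Of 20 actomyosin genes, which set tension at junctions, 10 rose and 1 fell, with a median log2 change of 0.31, and with median-of-ratios scaling 7 rose and 2 fell. Over all tested genes 44.2% rose and 13.0% fell, with a median of 0.24, and 25.9% and 26.5% with median-of-ratios scaling, so the list lay near the background. Rock2, a kinase that acts on myosin, averaged 7.82 ± 0.640 FPKM with alcohol and 2.16 ± 0.267 FPKM in controls (SD, n = 4 each). Arhgef2, a guanine nucleotide exchange factor known from tight junctions, averaged 3.25 ± 0.721 FPKM with alcohol and 0.116 ± 0.0192 FPKM in controls. The GTPase Rhob averaged 25.7 ± 9.83 and 10.2 ± 2.07 FPKM, and the membrane linker moesin (Msn) 5.54 ± 0.554 and 3.28 ± 0.707 FPKM.

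**Figure D4:**
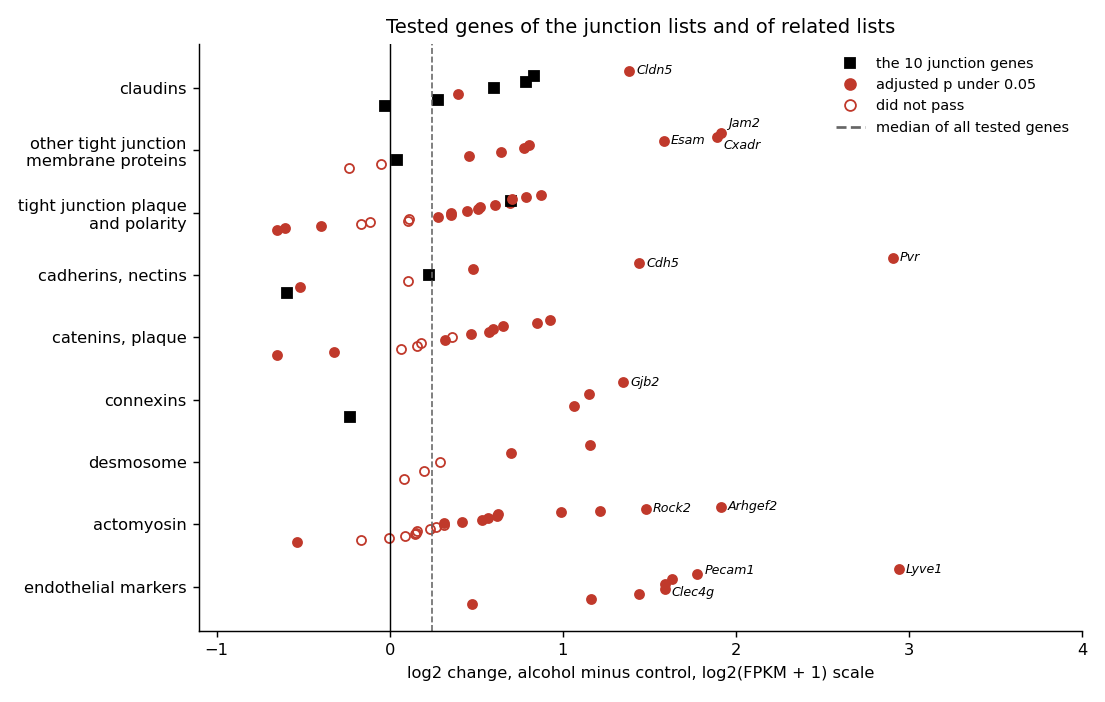
Log2 change, alcohol minus control, on the log2(FPKM + 1) scale, of every tested gene in 8 lists of junction or actomyosin genes and in the endothelial marker list, 1 list per row; black squares are the 10 junction genes, filled circles passed the test, open circles did not, and the dashed line is the median of all tested genes, 0.24. Labels name the listed genes by rule with changes past 1.3 in size; Pvr lies farthest to the right among the junction genes, at 2.91, and all 8 endothelial markers lie above 0.

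Markers of other liver cells moved with part of these lists. All 8 endothelial markers rose, and their summed level was 63.0 to 73.3 FPKM with alcohol and 13.5 to 20.6 FPKM in controls. Clec4g, a lectin of liver sinusoids, averaged 31.6 ± 2.69 and 9.95 ± 2.07 FPKM in alcohol and control samples (SD, n = 4 each), Lyve1 10.3 ± 1.33 and 0.478 ± 0.231 FPKM, and Pecam1 6.83 ± 1.04 and 1.29 ± 0.378 FPKM. Cldn5, Esam, Jam2, Cdh5 and Gja4 are expressed by endothelium, Cdh5 is on that marker list, and the part of endothelial RNA in their rises was not tested. Of 7 tested stellate cell markers 6 rose, led in level by Dcn, Ecm1 and Colec11, with sums of 170 to 232 FPKM with alcohol and 67.2 to 130.2 FPKM in controls. With median-of-ratios scaling 4 of the 7 rose, Dcn among them and not Ecm1 or Colec11. The share of all tested genes that rose was 44.2% as deposited and 25.9% with median-of-ratios scaling.

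Bile duct cells carry Cdh1, Cldn3 and other junction genes, and their defining markers were low in both groups. Krt7, Krt19 and Epcam averaged 0.552, 0.473 and 0.772 FPKM with alcohol and 0.349, 0.722 and 0.352 FPKM in controls, Cftr averaged 0.00527 and 0.00688 FPKM, and none of these 4 passed when all listed genes were fitted. Sox9, at 1.06 ± 0.431 and 0.465 ± 0.0907 FPKM in alcohol and control samples (SD, n = 4 each), passed in that fit as higher (limma adjusted p = 0.0356). The 8 bile duct markers summed to 34.8 to 49.7 FPKM with alcohol and 23.2 to 44.9 FPKM in controls, mostly from Spp1 and Krt23. Krt23 rose, with a log2 change of 3.29, and Spp1 did not pass. Macrophage marker sums overlapped, at 26.0 to 48.8 and 21.2 to 76.8 FPKM in alcohol and control samples, and the most abundant were Cd5l, Clec4f and Vsig4. The 5 tested macrophage genes gave 0 higher and 1 lower, against 44.2% and 13.0% of all tested genes. No lymphocyte marker reached the minimum, and their sums were 0.757 to 2.72 FPKM with alcohol and 3.41 to 4.89 FPKM in controls, the most abundant being Cd3g, Nkg7 and Cd79b. When all listed genes were fitted, 0 of the 8 lymphocyte markers were higher and 3 lower, against 24.2% and 6.39% of all listed genes. The 3 were Cd79a, Cd79b and Cd4, named after their values were seen. Of the enterocyte markers Fabp2 was the 1 tested gene and fell, with 48.9 ± 4.06 FPKM with alcohol and 144 ± 48.6 FPKM in controls, while Vil1 and Alpi averaged at most 0.0256 FPKM. With those 2 so low, Fabp2 is not read here as a measure of enterocytes, and its source cell was not tested.

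Hepatocyte markers stayed the most abundant by far, with sums of 52840 to 61700 FPKM with alcohol and 60920 to 66180 FPKM in controls. Of 7 tested 0 rose and 2 fell, Apoa1 and Ttr, while Alb did not pass, and with median-of-ratios scaling 4 fell. Because E-cadherin lies mainly around the portal tract, markers of liver zones were read beside it. Of 8 periportal markers 3 rose and 3 fell, and of 9 tested pericentral markers 4 rose and 4 fell. Among the most abundant, Ass1 and Cps1 rose and Pck1 fell on the portal side, and Cyp1a2 rose and Cyp2e1 and Rgn fell on the central side. With median-of-ratios scaling 0 periportal markers rose and 5 fell, 2 pericentral markers rose and 5 fell, and Ass1, Cps1 and Cyp1a2 did not pass. Shares over all tested genes were 44.2% higher and 13.0% lower as deposited, and 25.9% and 26.5% with median-of-ratios scaling. Whether a change of zones bears on Cdh1 was not tested.

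Some of the junction genes varied together within the groups. Control replicate 1 had the highest value of its group for Cldn2, Cldn12, Tjp1, Cdh1, Cdh2, Gjb1 and Ocln and the lowest for Cldn3. With alcohol, replicates 1 and 3 had more Tjp1, Cdh2 and Cldn12 and less Cldn3 than replicates 2 and 4. Over deviations from the group means in the 8 samples, the 45 pairs of genes had a median Pearson's r of 0.342, with quartiles of -0.125 and 0.596, given as a description. The most extreme were -0.904 for Cdh2 with Cldn3, 0.871 for Cldn12 with Cdh2 and 0.846 for Cldn2 with Cldn12. The summed FPKM of a library, which is lower where reads fall in longer genes, was 485171, 523679, 483138 and 521300 in alcohol replicates 1 to 4, against 517209, 573670, 561429 and 576544 in control replicates 1 to 4. It was lowest in the same samples, control replicate 1 and alcohol replicates 1 and 3. Gene lengths used for FPKM were 9964 bases for Cdh2 and 9558 for Tjp1 and 1263 for Cldn3, and the part of length in this pattern was not tested. Alcohol replicates 2 and 4 were the most alike pair of libraries, and with their values averaged into 1 sample the calls stayed 4 higher and 1 lower.

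**Figure D5:**
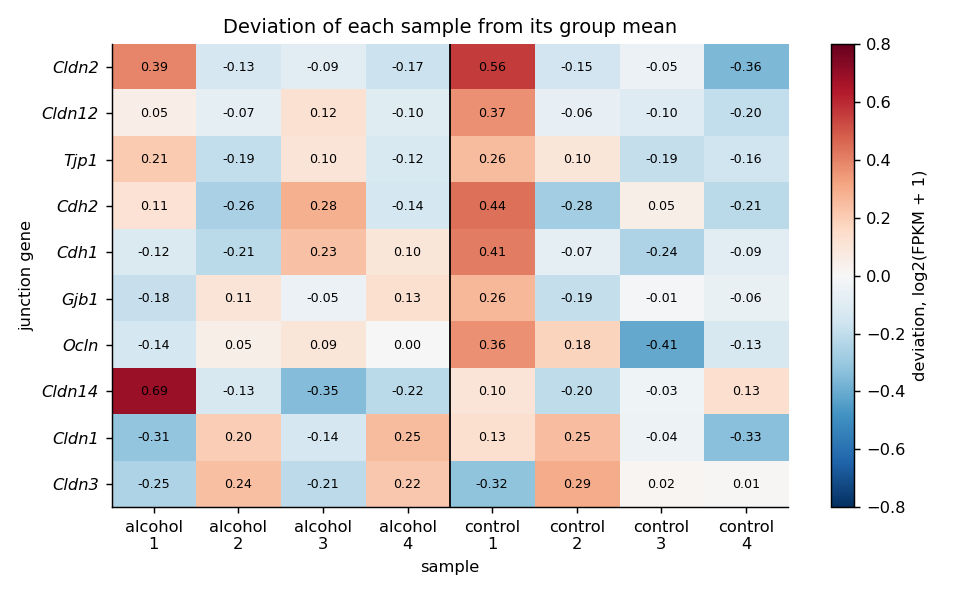
Deviation of each sample from the mean of its own group, on the log2(FPKM + 1) scale, for the 10 junction genes (rows) in the alcohol and control replicates (columns); red is above and blue below the group mean, and each cell prints its value. Control replicate 1 is red for all genes but Cldn3, and Cldn14 in alcohol replicate 1 has the largest deviation, 0.69.

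Genes with the pattern most like a junction gene over the 8 samples were named by the highest Pearson correlation of log2(FPKM + 1) among all tested genes, as a description. For Cldn1 they were Npepl1 (r = 0.994) and Tmem70 (0.985), for Cldn2 Rybp (0.994) and Lysmd1 (0.994), for Cldn12 Cdc42bpb (0.997) and Abcc2 (0.997) and for Tjp1 Suz12 (0.995) and Cipc (0.994). For Cdh1 they were Foxo3 (0.982) and Lgr4 (0.969), for Cdh2 Cyld (0.986) and Rab5b (0.973) and for Gjb1 Epn1 (0.976) and Prr3 (0.967). For Cldn3, Cldn14 and Ocln the first were Immp2l (0.987), Clp1 (0.969) and N4bp2l1 (0.972). Among the 10 themselves the closest pair was Cldn12 with Tjp1 (r = 0.958), and these correlations include the difference between the groups.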

How the data were processed

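RNA from 8 samples was sequenced, 4 alcohol and 4 control, grouped and numbered by their titles in the labels. Per the labels' protocols, libraries came from 1.3 ug of total RNA with a SMARTER mRNA kit. The authors deposited FPKM values, 1 column per sample, and the submitters' processing notes name GRCm38 and mm10. For the aligner, counter, annotation and strand handling: not given in the sources used here.

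A limma model (version 3.58.1, under R 4.3.3) of log2(FPKM + 1) set alcohol against control in every gene whose mean reached 1 FPKM, with a variance trend and 2-sided p-values adjusted by Benjamini-Hochberg over all 9228 genes. Each junction gene also had an exact permutation test, 2-sided, over 70 assignments of the samples. Whole reads were recovered from FPKM for 21044 of 21049 genes (tolerance about 1e-06 reads, taking the smallest gene length that gave whole reads) and used for depth and for 1 alternative, limma-voom. Intervals on changes are 95% limma intervals, and depth figures cover counting error only. The alternatives were other scalings, pseudocounts and minimums, no trend, a replicate block and leaving out each sample.

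The members and lists were chosen with earlier results of these data known. The text names all 10 junction genes. It names up to 4 genes past the threshold by smallest p from each junction list (the 2 most abundant where none passed), the 3 most abundant of each marker list and the 2 most alike genes per junction gene (for Cldn3, Cldn14 and Ocln the first is printed). Others are said to be chosen after their values were seen. Some listed genes are not reported here.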

Additional observations from a re-analysis of the deposited data

Results flagged for a closer look

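In 2 of the 20 groups of 4 values for the 10 junction genes, 1 sample lay far from the other 3 by Dixon's gap test, and chance flags about 1 in 20 groups. Both were alcohol replicate 1. Cldn2 had 38.05 FPKM there, with the other alcohol samples at 25.45 to 26.95 FPKM. Cldn14 had 6.62 FPKM there, with the others at 2.70 to 3.32 FPKM. Without that sample the log2 change was 0.66 for Cldn2, which kept its call, and 0.05 for Cldn14, which did not pass with or without it.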

How the results depend on the processing

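The log2 changes of Cldn1, Cldn2, Cldn12, Tjp1 and Cdh1 kept their direction and passed under all 18 alternatives run, with ranges of 0.56 to 1.01, 0.50 to 0.97, 0.31 to 0.76, 0.37 to 0.91 and -0.91 to -0.45. Their highest limma adjusted p-values were 0.0115, 0.0364, 0.0354, 0.0151 and 0.0347. Genes that did not pass changed sign under some settings. With median-of-ratios scaling Ocln was at -0.16 and Cdh2 at -0.028, Gjb1 passed at -0.53, so that 2 of the 10 were lower, all tested genes split into 2386 higher and 2446 lower, and 10 genes of the junction lists were lower. With quantile normalization Cldn3 was at 0.011, Cldn14 at -0.053, Ocln at -0.28 and Cdh2 at -0.072, all tested genes split into 2221 higher and 2307 lower, and 23 genes of the junction lists were higher. Both settings centre the samples by construction. On the TPM scale Cldn3 was at 0.12. Leaving out 1 sample gave ranges of -0.13 to 0.070 for Cldn3, 0.14 to 0.38 for Cdh2 (which passed without control replicate 1), -0.094 to 0.16 for Ocln, 0.05 to 0.39 for Cldn14 and -0.29 to -0.14 for Gjb1, with 4 to 5 of the 10 higher and 1 lower. The cause of these shifts was not tested. With the replicate number as a replicate block, 4307 genes were higher and 1380 lower, against 4080 and 1203, and no call among the 10 changed. Same-numbered samples did not all deviate together (correlations 0.349, 0.216, 0.071 and 0.280 for numbers 1 to 4), so the numbers were not taken as pairs. Averaging alcohol replicates 2 and 4 was chosen after seeing the data. Cldn14 and Ocln rest on 208 to 508 and 329 to 417 reads per alcohol sample and 164 to 222 and 212 to 467 per control sample, so their levels are the least precise.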
